A study of Mus musculus with 6 samples.

Results

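The S100 genes encode small calcium-binding proteins with paired EF-hand motifs. Members were taken as rows of the deposited expression table whose symbol is S100b or S100a followed by digits, which gave 10 genes of 10189 in the table: S100a1, S100a4, S100a6, S100a8, S100a9, S100a10, S100a11, S100a13, S100a16 and S100b. S100a8 and S100a9, the calgranulin genes, were set beside the other 8. The mouse annotation holds 14 genes that meet the naming rule, and the 4 others (S100a2, S100a3, S100a5 and S100a14) have no row in the table, which holds the genes left after a filter by the authors.

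Primary chondrocytes, the cells of cartilage, were the source of the total RNA that was sequenced. The KO cells came from mice with a global homozygous deletion of Mir34a (genotype MiR-34a -/-, 3 libraries), and the wild-type cells from mice with the gene intact (3 libraries). All mice were C57BL/6 and 5 weeks old, the model is given as Mir34atm1.2 Mrl for both genotypes, and the cells were untreated. Articular cartilage of knees and hips was pooled and digested, and the cells were grown with 10% serum until confluent, for about 1 week per the growth protocol or about 10 days per the design text. The deletion was present in every cell of the animal, so a value in KO cells cannot be tied to the chondrocyte alone. Whether libraries with the same genotype stem from different mice or different cultures is not in the labels. The p-values therefore measure the spread between these samples only, which may be technical.

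S100 proteins mostly work as dimers that change shape when they bind calcium and then hold on to a partner protein. Inside cells they act on annexins, the cytoskeleton and signalling proteins. Outside cells, several act as danger signals. S100A8 and S100A9 form a heterodimer, calprotectin, that is very abundant in neutrophils and present in monocytes, and that acts through the receptors TLR4 and RAGE. In cartilage, S100A1 and S100B are known as products of differentiated chondrocytes whose genes are targets of the SOX trio of transcription factors.

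The promoters of the calgranulin pair are shown because both genes had 0 reads in each KO library. Each is the RefSeq window (GRCm38.p6) from 250 bases before to 50 bases after the start, in the direction of the gene. Capitals mark matches on either strand to TTNNGNAA (C/EBP), GAGGAA (PU.1), AACAAT or AACAAAG (SOX) and TATAAA. The S100a8 window is chr3:90668821-90669120 on the plus strand, and the S100a9 window is chr3:90695672-90695971 on the minus strand.
S100a8 promoter: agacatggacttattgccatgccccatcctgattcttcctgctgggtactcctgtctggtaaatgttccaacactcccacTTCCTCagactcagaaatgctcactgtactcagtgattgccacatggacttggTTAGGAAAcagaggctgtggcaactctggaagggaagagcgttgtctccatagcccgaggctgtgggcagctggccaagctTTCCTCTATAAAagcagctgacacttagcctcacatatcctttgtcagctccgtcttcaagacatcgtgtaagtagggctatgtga
S100a9 promoter: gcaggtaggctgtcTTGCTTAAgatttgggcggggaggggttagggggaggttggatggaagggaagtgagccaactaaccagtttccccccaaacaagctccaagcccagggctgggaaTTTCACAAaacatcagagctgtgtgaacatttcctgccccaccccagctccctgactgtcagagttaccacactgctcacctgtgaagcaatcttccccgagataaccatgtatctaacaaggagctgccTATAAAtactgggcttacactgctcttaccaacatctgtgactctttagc

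The 2 promoters had different letters but shared 2 motif types. The C/EBP motif stood at position -117 in S100a8, and at positions -236 and -130 in S100a9, counted from the start. Of 9 members with a promoter in the RefSeq table, S100a8 and S100a9 were the 2 that held this motif, which occurred in 40.7% of all 32851 promoter windows. TATAAA stood at position -30 in S100a8 and at position 1, the first base of the transcript, in S100a9. S100a4 held it as well, against 13.6% of all windows. The PU.1 motif was found in S100a4, S100a8, S100a11 and S100a16, against 28.3% of all windows. AACAAT was found in S100a4 and S100a16, against 10.7%, and AACAAAG in 0 of the 9 members, against 5.85%. No marked match overlapped another, and the PU.1 and TATAAA matches nearest the S100a8 start are adjacent, in 1 run of capitals. Positions are counted from the RefSeq start. The GENCODE M21 annotation starts the S100a8 gene earlier, at 90668978, so by it these adjacent matches lie inside the gene. S100a10 has no entry in the promoter table.

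The deleted microRNA is shown with its seed, positions 2 to 8, in capitals, because a target is usually recognised by a match to the seed in its 3′ UTR.
miR-34a-5p: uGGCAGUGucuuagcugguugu
Of the 10 members, 0 had a match to the seed (CACTGCC), or to positions 2 to 7, in the longest annotated 3′ UTR. Among all 9349 genes of the table with an annotated 3′ UTR, 19.4% had a match to the full seed and 37.7% one to positions 2 to 7. The S100 3′ UTRs were short, 68 to 1091 bases with a median of 190, against a median of 1449 bases over all genes.

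The libraries held 989217 to 5266617 reads that could be recovered from the table, and 947081 to 1772185 reads without Rn45s, Lars2 and Mir6236. The ribosomal RNA precursor Rn45s took 59.1% of the reads of wild type 1 and 2.98% to 11.4% of the other 5. Libraries of 1 genotype differed beyond sampling noise (chi-square per degree of freedom 5.83 to 27.8), so each was counted. A row for Mir34a is missing from the table, which left no check of the genotype labels against it. Of 15 chondrocyte markers, 12 had a row, and their summed level was 5553, 2952 and 3224 CPM in KO libraries 1, 2 and 3, against 3048, 2104 and 1826 CPM in wild-type libraries 1, 2 and 3. All values below are CPM normalized by the trimmed mean of M-values (TMM), and log2 fold changes are KO over wild type on the log2(CPM + 0.5) scale. For genes with low values this scale understates a change.

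S100a8 and S100a9 transcripts were present in each wild-type library and absent from the reads of each KO library. S100a8, which encodes calgranulin A, had 0, 0 and 0 reads in KO libraries 1, 2 and 3, against 33, 34 and 29 reads in wild-type libraries 1, 2 and 3. These wild-type reads stood for 20.7, 25.9 and 17.0 CPM. The wild-type values lay close together, and the groups did not overlap. S100a9, which encodes calgranulin B, had 0 reads in each of the 3 KO libraries, against 82, 58 and 63 reads in the wild-type libraries, or 51.5, 44.2 and 36.9 CPM. Its wild-type libraries also lay within a narrow range, and S100a9 exceeded S100a8 in each of them, with 2.48, 1.71 and 2.17 times its CPM before any correction for transcript length.

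A count of 0 limits the level without showing absence. Over the KO group, 3 reads correspond to 0.476 CPM, and against that floor S100a8 was at least 44.5-fold lower in KO and S100a9 at least 92.8-fold lower. The floor covers counting error in these KO libraries only. It leaves out the spread between libraries, which exceeded sampling noise, so it is no bound for other KO samples. The wild-type means were taken as observed, so their counting error and spread are not in these folds. The fitted log2 fold changes, -5.42 (SE 1.15) for S100a8 and -6.47 (SE 0.81) for S100a9, depend on the pseudocount and are no bounds. In the whole table, 3 rows had 0 reads in all KO libraries, and S100a9 and S100a8 had the highest wild-type means among them. Both genes could enter the filtered table through their wild-type values only, so a gene with no KO reads had to be higher in wild type to have a row. In the other direction, 12 rows had 0 reads in all wild-type libraries.

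Neither gene passed the main test. The limma test with an intensity trend, with Benjamini-Hochberg adjustment over all rows, gave an adjusted p of 0.0701 for S100a9 and 0.247 for S100a8, and called 0 of 10 family members higher and 0 lower at an adjusted p below 0.05. Over all rows it called 0 higher (0% of rows) and 1 lower (0.00981% of rows). S100a9 ranked 2 and S100a8 ranked 42 of all rows by p. At an unadjusted p below 0.05, 3 members were higher (S100b, S100a4 and S100a6) and 2 lower (S100a8 and S100a9), against 4.64% of all rows higher and 6.4% lower. The direction of the 2 lower members was fixed by the filter, as given above. All KO values of S100a8 and S100a9 were 0, so the KO libraries added no spread to these tests. Their limma SE therefore rests on the wild-type libraries and on the spread of other rows. For S100a9 the SE was 0.81 with the trend and 0.225 without it, and for S100a8 it was 1.15 and 0.239. Without the intensity trend, limma called both lower (adjusted p = 0.000552 for S100a9 and 0.00125 for S100a8). That test called 0.0294% of rows lower and 0.0687% higher. On recovered reads, the quasi-likelihood test of edgeR called S100a9 (adjusted p = 0.0106) and not S100a8 (0.0821), with 0.0196% of rows lower. DESeq2 called both (adjusted p = 6.63e-09 and 6.37e-06), with 0.716% of rows lower and 0.412% higher, and limma-voom called neither (0.273 and 0.338). The adjusted p of S100a9 was 0.0129, 0.0124 and 0.0273 when KO 1, KO 2 or KO 3 was left out, and 0.391, 0.454 and 0.457 when wild type 1, wild type 2 or wild type 3 was left out. Without wild type 1, the library rich in Rn45s, and KO 2, which stood apart in macrophage markers, S100a9 stood at a log2 fold change of -6.35 (adjusted p = 0.137) and S100a8 at -5.43 (adjusted p = 0.284), both by limma.

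**Figure D1:**
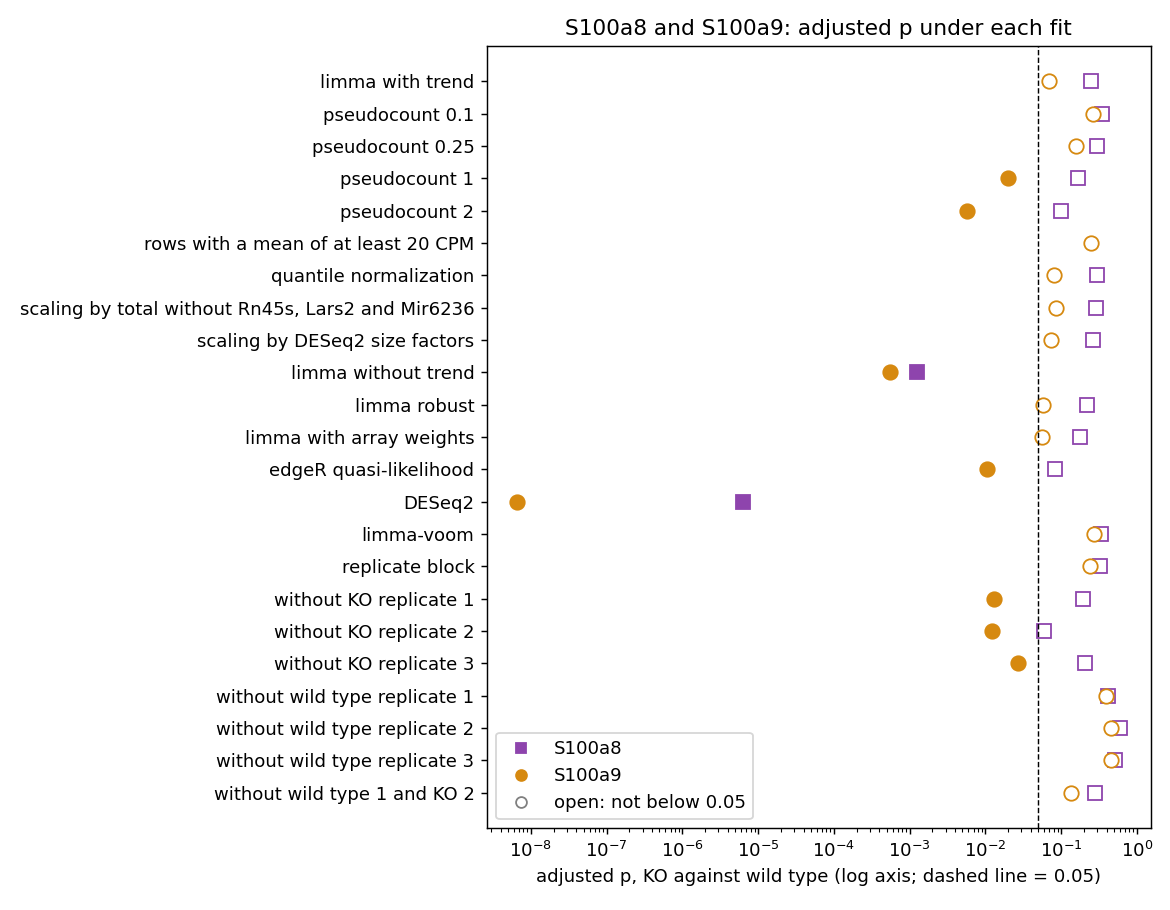
Adjusted p (log axis) of S100a8 (squares) and S100a9 (circles), KO against wild type, under each fit; filled points are below 0.05, the dashed line. S100a9 was below the line in 8 of 22 alternatives to limma with trend and S100a8 in 2 of 21.

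The other 8 members were all detected in each library, with 217 to 3449 reads over the 6 libraries. Per kilobase of the longest transcript, S100a4 had the highest level, 737 ± 165 CPM per kb in KO and 498 ± 56.4 CPM per kb in wild type (SD, n = 3 each), and S100a6 came next, with 423 ± 117 CPM per kb in KO and 257 ± 31.3 in wild type. S100a10 came after it, with 131 ± 12.6 CPM per kb in KO and 124 ± 30.6 in wild type. These 3 levels did not overlap with each other in either genotype. In KO, the order went on with S100a11 at 66.7, S100a13 at 44.3, S100a1 at 32.6, S100b at 32.5 and S100a16 at 16.0 CPM per kb, where each of the first 3 overlapped with the next. In wild type, S100a9 was the fourth, at 85.2 CPM per kb, apart from its neighbours in the order, and S100a8 stood at 42.6, between S100a11 at 49.7 and S100a13 at 33.8. S100a1 (30.5), S100a16 (19.1) and S100b (16.0 CPM per kb) closed the order. All neighbours from S100a11 down overlapped in wild type. S100b stood last in wild type and next to last of the detected genes in KO.

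**Figure D2:**
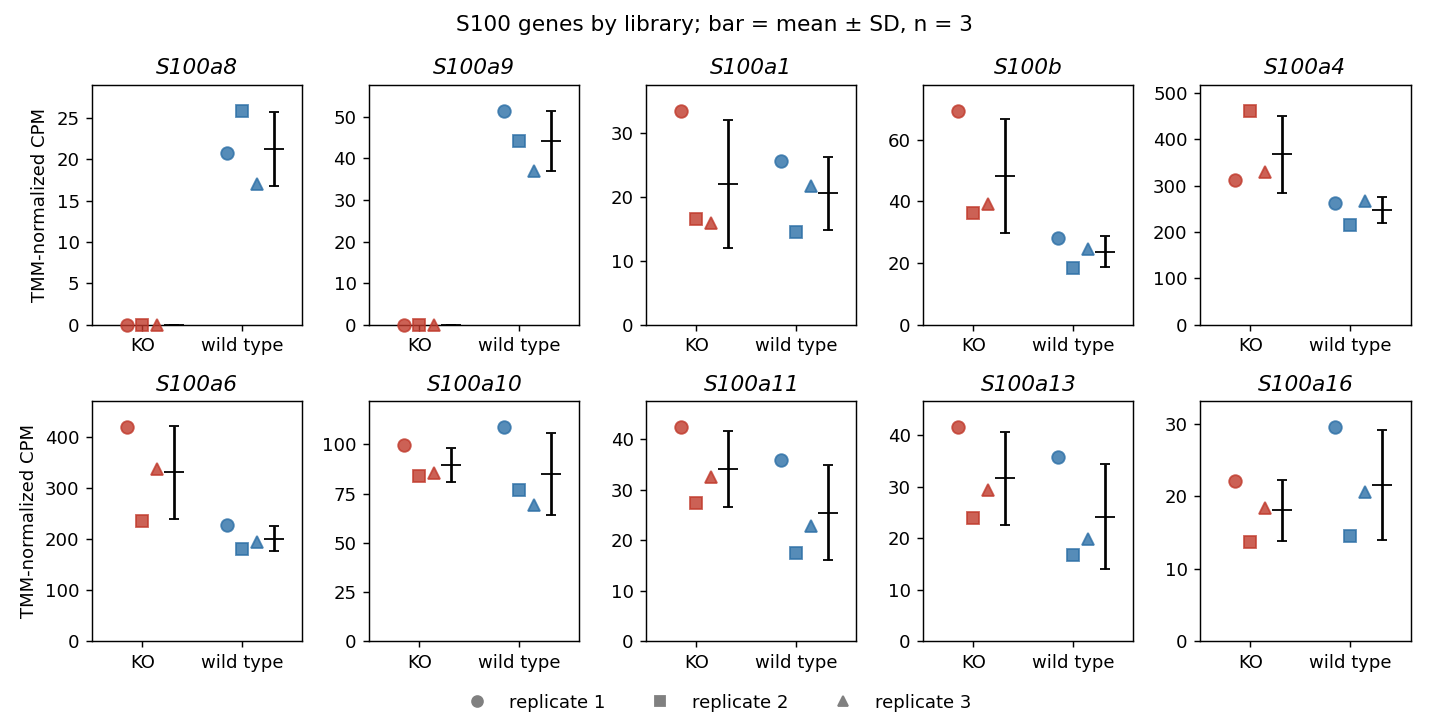
TMM-normalized CPM of each S100 gene in 3 KO libraries (red) and 3 wild-type libraries (blue), each axis from 0, with the mean ± SD beside the points and 1 symbol per replicate number. S100a8 and S100a9 are at 0 in each KO library, and the KO libraries lie above every wild-type library for S100b, S100a4 and S100a6.

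The cartilage members S100b and S100a1 gave different values, and their difference from each other was not tested. S100b had 69.5, 36.3 and 39.1 CPM in KO libraries 1, 2 and 3, against 28.3, 18.3 and 24.6 CPM in wild-type libraries 1, 2 and 3. KO 1 stood highest, and the groups did not overlap. KO over wild type, S100b had a log2 ratio of 0.97 (SE 0.32, limma adjusted p = 0.324), with 0.68 to 1.14 when any 1 library was left out. S100a1, known best from heart muscle, where it acts on calcium release, had 33.6, 16.7 and 15.9 CPM in KO libraries 1, 2 and 3, against 25.8, 14.5 and 21.7 CPM in wild-type libraries 1, 2 and 3. The groups overlapped, with a log2 ratio of 0.05 (SE 0.39, limma adjusted p = 0.968) that turned to -0.30 without KO 1.

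S100a4 and S100a6, the most abundant members, were also above the wild-type range in each KO library. S100a4, a gene of fibroblasts and motile cells whose protein binds non-muscle myosin, had 311, 462 and 328 CPM in KO libraries 1, 2 and 3, against 262, 216 and 266 CPM in wild-type libraries 1, 2 and 3. KO 2 was the highest here, unlike in the other 7 detected members, where KO 1 was the highest KO library. For S100a4 the log2 fold change came to 0.55 (SE 0.21, limma adjusted p = 0.378), and to 0.37 to 0.66 with any 1 library left out. S100a6, which encodes calcyclin, had 420, 237 and 338 CPM in KO libraries 1, 2 and 3, against 229, 181 and 194 CPM in wild-type libraries 1, 2 and 3. KO 2 lay just above wild type 1. For S100a6 it came to 0.69 (SE 0.23, limma adjusted p = 0.335), and to 0.50 to 0.91 with any 1 library left out. Without wild type 1 and KO 2, the log2 fold change was 1.28 for S100b, 1.00 for S100a6 and 0.42 for S100a4. Over all rows, KO libraries lay above every wild-type library in 8.82% of rows and below every one in 9.57%, against 3 and 2 of the 10 members. The 2 below were S100a8 and S100a9, which had a row through their wild-type values only. Their direction was thus fixed by the filter, and the share of all rows is no measure for them.

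S100a10, S100a11, S100a13 and S100a16 also had overlapping groups. S100a10, which binds annexin A2 without needing calcium, had 99.6, 83.8 and 85.6 CPM in KO libraries 1, 2 and 3, against 109, 76.9 and 69.2 CPM in wild-type libraries 1, 2 and 3. Wild type 1 was the highest library (log2 fold change 0.10, SE 0.23, limma adjusted p = 0.883). S100a11, whose protein binds annexin A1, had 42.4, 27.4 and 32.4 CPM in KO libraries 1, 2 and 3, against 35.8, 17.5 and 22.9 CPM in wild-type libraries 1, 2 and 3 (log2 fold change 0.46, SE 0.33). S100a13, which takes part in the release of the growth factor FGF1, followed the same order of libraries, with 41.6, 24.0 and 29.4 CPM in KO libraries 1, 2 and 3, against 35.8, 16.8 and 19.9 CPM in wild-type libraries 1, 2 and 3 (log2 fold change 0.42, SE 0.36). Wild type 1 exceeded 2 of the 3 KO libraries for both genes. Without KO 1, wild type 1 or wild type 2, the log2 fold change of S100a11 was 0.29, 0.73 or 0.22, and that of S100a13 was 0.21, 0.74 or 0.20. S100a16, which is broadly expressed, had 22.1, 13.7 and 18.4 CPM in KO libraries 1, 2 and 3, against 29.5, 14.5 and 20.5 CPM in wild-type libraries 1, 2 and 3, and was the detected member with a lower mean in KO (log2 fold change -0.21, SE 0.36). The sign of S100a16 turned without wild type 1 (0.040). None of these 4 genes passed with limma, edgeR, DESeq2 or limma-voom.

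Taking the 8 detected members as 1 sum, KO libraries had 1040, 900.02 and 887 CPM, against 755, 555 and 639 CPM in wild-type libraries 1, 2 and 3. The sums did not overlap, and S100a4 and S100a6 made up most of them. With S100a8 and S100a9 added, the family sum was unchanged in KO and was 827, 625 and 693 CPM in wild type, where the calgranulin pair made up 8.74%, 11.2% and 7.78% of it. Of the 8, 7 had a higher log2 mean in KO (6 to 8 under the alternatives), as did 51.4% of all rows. Their median log2 ratio was 0.44, against 0.02 over all rows. It came to 0.25 with KO 1 left out, to 0.21 with wild type 2 left out and to 0.66 with wild type 1 left out. The same libraries led within each genotype: among wild-type libraries, wild type 1 was highest for 7 of the 8 and wild type 2 lowest for 7. KO 1 and wild type 1 also had the highest summed chondrocyte markers of their genotype, and the part of this in the values of the S100 genes was not tested.

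**Figure D3:**
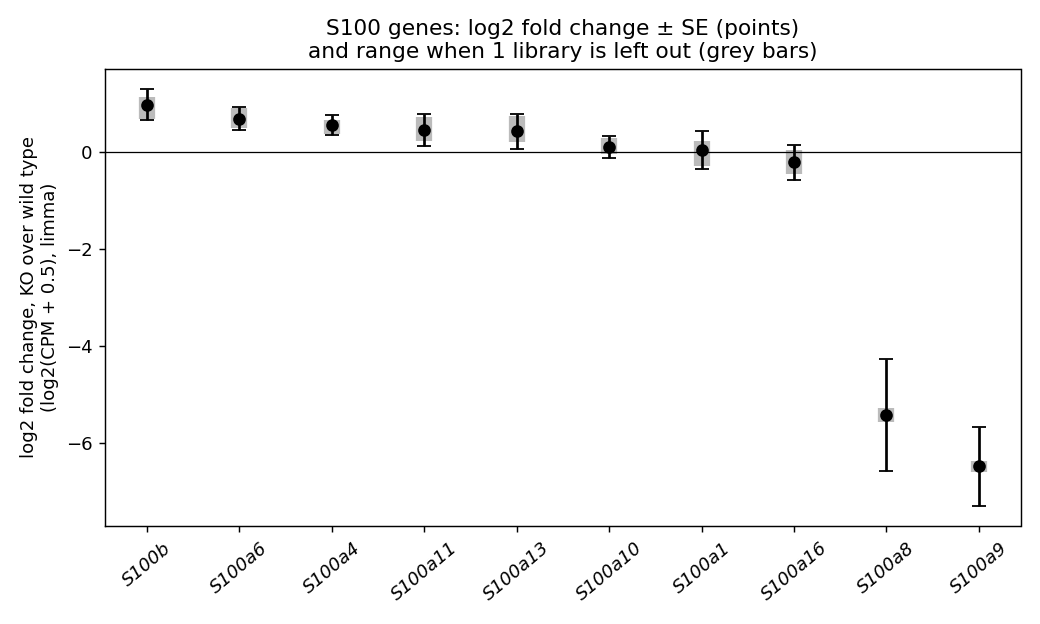
Log2 fold change of each S100 gene, KO over wild type, from limma on log2(CPM + 0.5), with its SE (points and bars) and the range when 1 library is left out (grey). S100a8 and S100a9 lie at -5.42 and -6.47, apart from the other 8, which lie between -0.21 and 0.97.

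The 9 members on chromosome 3 fall into separate groups. Coordinates are those of GENCODE M21 (mm10). S100a8 lies at 90668978 to 90670035 on the plus strand and S100a9 at 90692632 to 90695721 on the minus strand, with 22596 bases between them. S100a1, S100a13, S100a16, S100a4, S100a6, S100a8 and S100a9 lie within 184688 bases, S100a10 and S100a11 lie farther along the chromosome, and S100b lies on chromosome 10 at 76253853 to 76261159. In this annotation, 0 of the 10 members share exon bases with a gene on the opposite strand. S100a4 shares 302 exon bases with Gm42674 on the same strand, which has no row. Of 98 other annotated genes within 500 kb of a member on chromosome 3, 16 had a row. At an unadjusted limma p below 0.05, 1 of the 16 was higher and 1 lower, near the 4.64% and 6.4% of all rows, and 0 passed after adjustment with limma, edgeR, DESeq2 or limma-voom. Their median log2 fold change was 0.26. Snapin, which encodes a SNARE-associated protein, had 144, 147 and 171 CPM in KO libraries, against 199, 195 and 223 CPM in wild-type libraries (log2 fold change -0.41, SE 0.17). Slc27a3, of the fatty acid transporter family, had 19.8, 11.3 and 20.2 CPM in KO libraries, against 0, 0 and 9.97 CPM in wild-type libraries. Ints3, a subunit gene of the Integrator complex, stood at 0.83 on the same scale (SE 0.40).

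The rows whose values followed S100a9 most closely over the 6 libraries were, after S100a8 (Pearson r = 0.998), Invs (0.997), Cyp51 (0.997), Casc5 (0.993), Clock (0.991) and Pepd (0.989). The same 5 genes were nearest to S100a8, with r from 0.989 to 0.997. Both rows of the pair are 0 in each KO library, so their likeness and their shared nearest rows follow from that. Within wild type their order differed, with S100a9 highest in wild type 1 and S100a8 in wild type 2. These correlations are descriptions over 6 libraries that fall into 2 genotypes, so any gene with a steady gap between the genotypes scores high. Invs, which encodes the cilium protein inversin, had 50.1 ± 3.90 CPM in KO and 220 ± 21.7 CPM in wild type (SD, n = 3 each), and was the row called by the main test (limma adjusted p = 0.00873). Casc5, a kinetochore gene, had 24.3 ± 1.50 CPM in KO and 48.3 ± 0.938 CPM in wild type. The circadian gene Clock had 170 ± 6.28 CPM in KO and 266 ± 7.95 CPM in wild type. These genes kept many reads in KO, unlike S100a8 and S100a9, which had none.

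Receptors of extracellular S100A8 and S100A9 were measured in both genotypes. Of 10 genes of this pathway, 8 had a row, and Ager, which encodes RAGE, and Ly96 had none. With limma, edgeR, DESeq2 and limma-voom, 0 of the 8 passed in either direction, and 0 had an unadjusted limma p below 0.05. Their median log2 fold change was 0.19. Tlr4, the Toll-like receptor for calprotectin, had 117, 103 and 71.6 CPM in KO libraries 1, 2 and 3, against 71.6, 44.9 and 76.2 CPM in wild-type libraries 1, 2 and 3. Its groups overlapped (log2 fold change 0.60, SE 0.28, limma adjusted p = 0.464). Bsg, which encodes basigin, a receptor for S100A9, had 834 ± 137 CPM in KO and 651 ± 124 CPM in wild type (SD, n = 3 each), with overlapping groups. Traf6, an adaptor below Toll-like receptors, had 12.0 ± 4.75 CPM in KO and 18.0 ± 2.45 CPM in wild type.

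Annexins and other genes listed as partners of S100 proteins likewise gave no call. Of 9 annexin genes, 8 had a row and 0 passed with limma, edgeR, DESeq2 or limma-voom, with a median log2 fold change of 0.33. Anxa2, the partner of S100a10, had 484 ± 76.2 CPM in KO and 479 ± 66.1 CPM in wild type (SD, n = 3 each), a log2 fold change of 0.01 (SE 0.20) beside 0.10 for S100a10. Anxa1, the partner of S100a11, had 381 ± 67.0 CPM in KO and 279 ± 38.5 CPM in wild type. Anxa4 stood at a log2 fold change of 0.43 (SE 0.23), as did Anxa7 (0.43, SE 0.20). Of 16 other genes listed as partners, plasminogen activator genes among them, 15 had a row. For 2, both higher, the unadjusted limma p was below 0.05, against 4.64% of all rows. Mdm2, whose product restrains p53, had 78.6 ± 10.9 CPM in KO and 53.0 ± 4.75 CPM in wild type. Plat, the tissue plasminogen activator gene, had 37.4, 27.4 and 22.0 CPM in KO libraries, against 4.40, 3.81 and 22.3 CPM in wild-type libraries, so 1 wild-type library reached the KO range. Plau, which encodes urokinase, had a log2 fold change of -0.83 (SE 0.42). Among 19 other genes of EF-hand and calcium-sensor proteins with a row, 14 had a higher log2 mean in KO, with a median log2 fold change of 0.26. Sparc, which encodes the calcium-binding matrix protein osteonectin, had 2949 ± 331 CPM in KO and 1731 ± 503 CPM in wild type, and its groups did not overlap. Capn2, a calpain gene, had a log2 fold change of 0.48 (SE 0.19) and Nucb2 0.45 (SE 0.23). None of the partner or EF-hand genes passed with limma, edgeR, DESeq2 or limma-voom.

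Genes of the SOX trio and of cartilage matrix are the setting in which S100b is expressed in chondrocytes. Of 13 measured members, 12 had a higher log2 mean in KO, as did 51.4% of all rows, with a median log2 fold change of 0.65. Without KO 1, 10 were higher and the median was 0.39, and without KO 2 it was 1.08. The unadjusted limma p was below 0.05 for 6, all higher, against 4.64% of all rows. DESeq2 called 3 of the 13 higher (Acan, Col9a2 and Col11a2), against 0.412% of all rows, and limma, edgeR and limma-voom 0. Among chains of the minor cartilage collagens, Col11a2 stood at a log2 fold change of 1.94 (SE 0.34), Col9a2 at 1.75 (SE 0.35) and Col9a3 at 1.05 (SE 0.28). Sox9 itself had 24.8, 15.2 and 15.3 CPM in KO libraries 1, 2 and 3, against 14.5, 8.38 and 11.7 CPM in wild-type libraries 1, 2 and 3. Its groups did not overlap, and it did not pass (limma adjusted p = 0.547). Its partners Sox5 (0.52, SE 0.63) and Sox6 (0.53, SE 0.54 on the log2 scale) had overlapping groups.

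**Figure D4:**
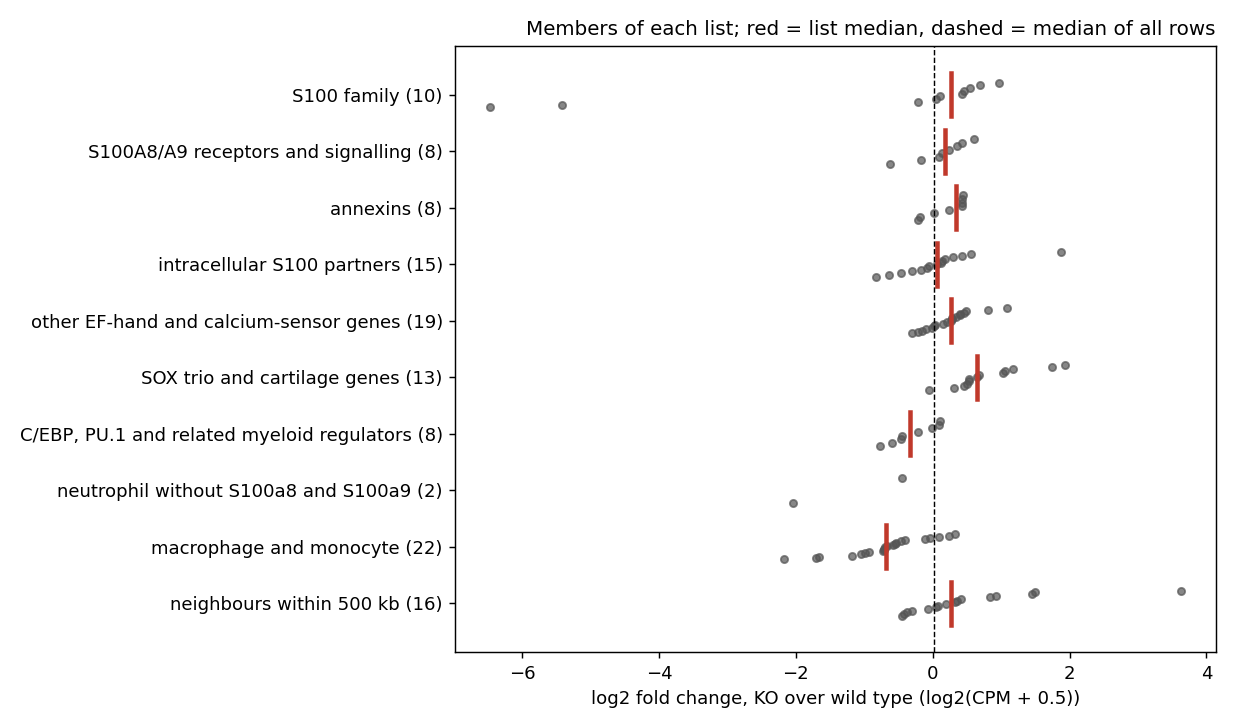
Log2 fold change (KO over wild type, log2(CPM + 0.5)) of each measured member of 10 gene lists, with the number of members in brackets, the median of lists over 2 members in red and the median of all rows dashed. S100a8 and S100a9 lie at the far left and are drawn with the S100 family and left out of the neutrophil list, and the other S100 genes lie in the range of the other EF-hand and calcium-sensor genes.

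Because S100a8 and S100a9 are markers of neutrophils and monocytes, the other markers of cells that a cartilage digest can hold were set beside them. Of 26 neutrophil markers, 4 had a row: S100a8, S100a9, Lcn2 and Mmp8. The defining granule and surface markers Elane, Mpo, Ngp, Camp, Ltf, Ly6g, Cxcr2 and Csf3r had none. Here and below, a missing row does not show absence, since the second highest value of each kept row was at least 7.35 CPM. Of the 24 markers other than S100a8 and S100a9, Lcn2 and Mmp8 were thus the 2 with a row, and DESeq2 called 1 of them lower (Mmp8), as it did 0.716% of all rows. Limma, edgeR and limma-voom called neither. Mmp8, which encodes neutrophil collagenase, had 3.05, 3.43 and 5.51 CPM in KO libraries, against 15.1, 16.0 and 22.3 CPM in wild-type libraries. Its groups did not overlap (log2 fold change -2.04, SE 0.50, limma adjusted p = 0.273, DESeq2 adjusted p = 0.0461). Lcn2, which encodes a neutrophil granule protein that chondrocytes also make, had 214, 91.6 and 71.0 CPM in KO libraries 1, 2 and 3, against 315, 101 and 113 CPM in wild-type libraries 1, 2 and 3, with overlapping groups. The sum of Lcn2 and Mmp8 was 76.5 to 217 CPM in KO and 117 to 330 CPM in wild type. In these bulk samples, fewer cells of a type and less RNA per cell cannot be told apart, and the part of neutrophil content in the S100a8 and S100a9 values was not tested.

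Macrophage markers gave another order of libraries. Of 23 macrophage and monocyte markers, 22 had a row, and 19 had a lower log2 mean in KO, as did 48.6% of all rows, with a median log2 fold change of -0.68. That direction rested on KO 1, without which 8 were lower and the median was 0.17. Without KO 2, 22 were lower and the median was -1.30. Of the 19, 11 turned higher with some 1 library left out, and edgeR and DESeq2 gave 15 lower (medians -0.27 and -0.26). DESeq2 called 1 of the 22 lower (Mrc1), as it did 0.716% of all rows, and limma, edgeR and limma-voom called 0. At an unadjusted limma p below 0.05, 3 were lower and 0 higher, against 6.4% and 4.64% of all rows. KO libraries lay below every wild-type library for 1, against 9.57% of all rows. The summed level of the 22 markers was 1237, 16644 and 4104 CPM in KO libraries 1, 2 and 3, against 7041, 6695 and 6037 CPM in wild-type libraries 1, 2 and 3. KO 2 had the highest sum of the 6 libraries and KO 1 the lowest, and both had 0 reads of S100a8 and S100a9. Lyz2 was a large part of each sum, with 594, 12165 and 1757 CPM in KO libraries 1, 2 and 3. In wild-type libraries 1, 2 and 3, Lyz2 had 4139, 3326 and 3648.5 CPM. The part of macrophage or monocyte content in the S100a8 and S100a9 values was not tested. Mrc1, the mannose receptor gene, had 63.7, 212 and 249.6 CPM in KO libraries 1, 2 and 3, against 447, 670 and 361 CPM in wild-type libraries 1, 2 and 3, and its groups did not overlap. Itgb2, a leukocyte integrin gene, stood at a log2 fold change of -1.18 (SE 0.52), and Ms4a7, a gene of tissue macrophages, at -2.18 (SE 0.79).

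**Figure D5:**
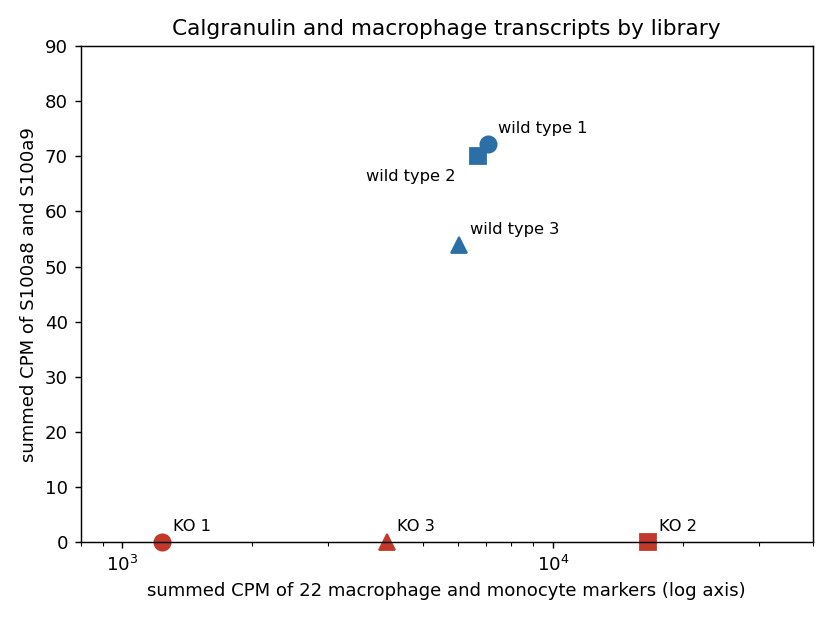
Summed CPM of S100a8 and S100a9 (vertical axis) against the summed CPM of 22 macrophage and monocyte markers (horizontal log axis) in the 3 KO (red) and 3 wild-type (blue) libraries. KO 2 lies farthest right with 0 reads of the pair, while the wild-type libraries lie at 53.9 to 72.2 CPM of the pair. Lyz2 is a large part of each marker sum.

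C/EBP factors, PU.1 and related myeloid regulators were mostly measured. Whether they act on the S100a8 and S100a9 promoters in these cells was not tested. Of 10 genes, 8 had a row, 2 with a higher and 6 with a lower log2 mean in KO. Over all rows, 48.6% had a lower log2 mean in KO. With limma, edgeR, DESeq2 or limma-voom, 0 of the 8 passed. Cebpd, which encodes a C/EBP factor of the inflammatory response, had 87.8, 94.6 and 128 CPM in KO libraries 1, 2 and 3, against 185, 144 and 198 CPM in wild-type libraries 1, 2 and 3. Its groups did not overlap (log2 fold change -0.77, SE 0.22, limma adjusted p = 0.283). Cebpa, a C/EBP factor of granulocyte development, had 18.5 ± 8.07 CPM in KO and 25.3 ± 10.9 CPM in wild type (SD, n = 3 each). Spi1, which encodes PU.1, had 6.87, 59.8 and 36.1 CPM in KO libraries 1, 2 and 3, against 31.4, 50.3 and 25.8 CPM in wild-type libraries 1, 2 and 3, in the order of the macrophage sums within KO, of which Spi1 is itself a part.

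Few markers of other cell types had a row. Of 10 erythroid markers 1 had a row (Alas2, 30.8 ± 15.5 CPM in KO and 51.6 ± 10.5 CPM in wild type), and the globin genes on the list had none. Of 8 keratinocyte markers 1 had a row (Krt10, 27.5 ± 8.74 CPM in KO and 28.2 ± 6.54 CPM in wild type), and of 7 markers of glia and neurons, other sources of S100b, 1 had a row (Mbp). Mbp had 2.29, 48.0 and 8.56 CPM in KO libraries 1, 2 and 3, against 13.2, 7.62 and 12.9 CPM in wild-type libraries 1, 2 and 3. The part of glial RNA in the S100b values was not tested. The endothelial genes Pecam1 and Cdh5, 2 of 6 endothelial markers, had 0 reads in KO 1 and KO 3 and summed to 43.6 CPM in KO 2, against 11.3, 19.8 and 34.0 CPM in the wild-type libraries.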

How the data were processed

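RNA was sequenced from 3 KO and 3 wild-type chondrocyte samples, with a stranded total RNA kit and 75 cycles per end per the labels. The file deposited by the authors gives 1 signal value per gene and library, read counts that the authors scaled to TMM-normalized CPM and filtered, per the name of the table. Per the submitters' processing notes, the tools included HISAT2 2.1.0, StringTie 1.3.5, cutadapt 1.18, edgeR and bcl2fastq, and the build was mm10; roles are not stated. The strand rule applied in counting was not given in the sources used here. Division by the smallest step of a library turned 100% of its values into whole reads, within 0.001 reads, and these reads were used as recovered counts. In each row the second highest value was at least 7.35 CPM. Titles matched 5 of 6 columns exactly, and the KO 3 column has a letter O for a zero.

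The main test of KO against wild type was limma's (3.58.1, in R 4.3.3), two-sided, on log2 values after adding 0.5 CPM, with the intensity trend. Its p-values were adjusted over all 10189 rows. The edgeR 4.0.16 quasi-likelihood test, DESeq2 1.42.0 and limma-voom were run on the recovered reads. The design had assumed plain CPM, but columns sum to between 717887 and 3308720, so the values are named a signal here and the log-scale test was kept. The fits were tested on simulated data. Positions, lengths and 3′ UTRs came from GENCODE M21, and promoters and the miRNA from RefSeq. Symbols of 9814 rows matched GENCODE.

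The members and lists were chosen with earlier results of these data known. Named were all members, per list (and among neighbours) the genes called or the 3 of smallest p, and the 6 rows nearest by correlation to each calgranulin. Acan, Anxa2, Sox5, Sox6, Sox9, Lcn2 and Lyz2 were added after their values were seen. Other steps used Python 3.11.15, pandas 2.3.3 and matplotlib 3.10.9.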

Additional observations from a re-analysis of the deposited data

How the results depend on the processing

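Counts of called genes were small and moved with the fit. Over all rows limma called 0 higher and 1 lower. Higher and lower counts came to 7 and 3 without trend, 1 and 3 with robust empirical Bayes, 42 and 73 with DESeq2, 0 and 2 with edgeR, with a pseudocount of 1 or 2 CPM, or without wild type 1 and KO 2, and 1 and 4 at an adjusted p below 0.1. Leaving out 1 library gave 0 to 7 higher and 0 to 25 lower. The replicate numbers did not pair the samples (correlations of deviations -0.048 to 0.090, and not every library correlated best with its own number), and a block on them called 0 and 0, with an adjusted p of 0.242 for S100a9. The Invs call ended with the block (adjusted p = 0.123), with wild type 1 left out (0.160) and with KO 2 left out as well (0.0787).

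Of the S100 family, 0 members were called higher under each alternative run. S100a9 was called lower at an adjusted p below 0.1 (-6.47), with a pseudocount of 1 (log2 fold change -5.49, adjusted p = 0.0199) or 2 (-4.52, 0.00582), without trend (-6.47), with edgeR (-9.33) and with DESeq2 (-8.94), making 1 family member lower, or 2 where S100a8 passed too, without trend (-5.42) and with DESeq2 (-7.88). Leaving out 1 library gave 0 to 1 members lower, and log2 fold changes of -6.59 to -6.35 for S100a9 and -5.57 to -5.27 for S100a8. With a filter at a mean of 20 CPM, S100a8 and S100a16 were not tested. The cause of these moves was not tested. S100a8, S100a9, S100b, S100a4, S100a6, S100a11 and S100a13 kept their sign under each alternative. S100a1 turned with quantile normalization (-0.0051), array weights (-0.0029), without KO 1 and without wild type 2 (-0.18), and ranged from -0.30 to 0.23 when 1 library was left out. S100a10 turned without wild type 3 (range -0.033 to 0.29), and S100a16 without wild type 1 (range -0.46 to 0.040) and with KO 2 left out as well (0.22). Of other named genes, leaving out 1 library turned Anxa2 (-0.085 to 0.15), Lcn2 (-0.92 to 0.065), Lyz2 (-1.85 to 0.33), Sox5 (-0.046 to 1.08), Spi1 (-1.09 to 0.43), Krt10 (-0.30 to 0.12) and Mbp (-1.18 to 0.88). Lcn2 also turned without both wild type 1 and KO 2 (0.21), Lyz2 with edgeR (0.39) and DESeq2 (0.40), Krt10 with total scaling (0.0034) and array weights (0.0022), and Mbp with a pseudocount of 2 (0.019), edgeR (0.79) and DESeq2 (0.82). Levels per kb by the median transcript kept the order of the S100 genes in both genotypes. Within the 250 bases before the start, S100a9 no longer held TATAAA and S100a4 no longer held GAGGAA. The lowest wild-type count of S100a8 was 29 reads, which limits the precision of its level.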
